A study of Homo sapiens with 10 samples.

Results

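The MYC and PVT1 locus was taken as the 1.2 Mb of hg19 chromosome 8 between 128000000 and 129200000, and its members are the islands that overlap this window. An island is a stretch of sequence in which antibody reads exceeded control reads by the peak caller's criteria. Over 9 island lists the window held 506 of 778773 islands, and the rest of chromosome 8 held 33153. By list, the window held 63, 69 and 58 H3K9ac islands, 35, 49 and 71 H3K27ac islands, and 70, 40 and 51 H4K16ac islands, each without doxycycline (noDox), at 2 days and at 7 days. MYC was placed at 128748 to 128754 kb and PVT1 at 128807 to 129113 kb. The window was divided into the stretch upstream of MYC, the MYC promoter, the rest of MYC, the stretch between the genes, the PVT1 promoter, the rest of PVT1 (called the PVT1 body), and the stretch after PVT1. A promoter here is the gene start with 2 kb on each side.

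The series used CUT&RUN, in which an antibody directs a nuclease to chromatin and the released DNA is sequenced. The cells were immortalized human astrocytes, a fetal line carrying SV40 sequences, with IDH1-R132H, the tumour-associated form of isocitrate dehydrogenase 1, under doxycycline control. The noDox cells are labelled WT IDH1; the 2d-Dox and 7d-Dox cells received doxycycline at 1 µg/ml for 2 or 7 days and are labelled IDH1-R132H. Each reaction used 200000 cells, and each mark and time has 1 library, so no value below has replicate error and no test between times was possible. All groups share the line and its inducible construct, and no group received doxycycline without IDH1-R132H, so doxycycline and time in culture cannot be told apart from IDH1-R132H. The control was 1 noDox library made with an HRP-linked secondary antibody. The lists name no genes, so astrocyte markers were not checked.

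MYC encodes a transcription factor that drives growth and proliferation in many cell types. PVT1 is a long noncoding RNA gene downstream of MYC, and its body holds enhancers that can act on the MYC promoter, while its own promoter can compete with MYC for them. The gene-poor stretch upstream of MYC also holds enhancers used in some tissues and cancers. Acetylation of histone H3 at lysines 27 and 9 is found at promoters and enhancers in use, whereas acetylation of histone H4 at lysine 16 loosens chromatin over broader stretches.

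Antibody reads were divided by library size relative to the HRP library, and these are called scaled reads. Over noDox, the H3K9ac library was 1.37 times as large at 2 days and 1.6 times at 7 days, the H3K27ac library 0.791 and 0.375 times, and the H4K16ac library 1.22 and 3.11 times. Reads in islands summed to between 4209773 and 18664203 per list. Merged regions are islands of a mark's 3 lists that touch. Over those with an island in both lists compared, the median log2 ratio over noDox at 2 and at 7 days was -0.12 and -0.042 (H3K9ac), -0.12 and -0.14 (H3K27ac), and 0.15 and 0.42 (H4K16ac). Values less this median are given as centred. Sums over a segment also include islands called at 1 time only, which this median leaves out. Summed over windows of 1.2 Mb with at least 1000 reads in both libraries, the medians were 0.0074 and 0.053 (H3K9ac), -0.089 and -0.053 (H3K27ac), and 0.088 and 0.50 (H4K16ac). Brackets hold 95% exact Clopper-Pearson intervals, which cover counting error only.

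Both promoters carried H3K27ac and H3K9ac in every library, and the MYC promoter carried no H4K16ac island in any. At MYC the H3K27ac island spanned the whole gene. Without doxycycline it lay at chr8:128745601-128760000, was 14.4 kb long and held 1217 antibody reads against 34 HRP reads, a deposited fold of 8.99. At 2 days it lay at chr8:128743801-128758200, again 14.4 kb, with 914 antibody and 36 HRP reads and a deposited fold of 8.07. At 7 days it lay at chr8:128746001-128758600, 12.6 kb, with 471 antibody and 33 HRP reads and a deposited fold of 9.57. The deposited folds are the authors' values. In reads the MYC island was among the richest of its list each time: 2.11%, 1.51% and 0.645% of H3K27ac islands held more. Islands with more reads per kb made up 2.07%, 5.14% and 8.91%, and those with a higher fold 21.0%, 31.5% and 40.3%. The course of its place over time thus depended on the measure.

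Over the 4 kb of the MYC promoter, scaled H3K27ac reads were 84.9 without doxycycline, 80.7 at 2 days and 100.3 at 7 days. The log2 ratio over noDox was -0.073 (-0.31 to 0.17) at 2 days and 0.24 (-0.043 to 0.53) at 7 days, so both intervals include 0. Centred, these are 0.047 and 0.39. The rest of MYC lies in the same island and takes the same values, since an island's reads were spread evenly along its length. Over the fixed 14.4 kb of the noDox island, the ratio was -0.27 (-0.40 to -0.14) at 2 days and 0.047 (-0.11 to 0.20) at 7 days. Both later values there go with a shorter overlap, 12.6 kb. The 2-day island starts and ends further upstream, and the 7-day island is itself 12.6 kb long. Scaled reads per kb of island on this stretch were 21.2, 20.2 and 25.1.

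H3K9ac covered a narrower stretch around the MYC start. The noDox island at chr8:128744401-128752800 was 8.4 kb long and held 192 antibody and 21 HRP reads. At 2 days the island at chr8:128746001-128752800 was 6.8 kb long with 240 and 18 reads, and at 7 days the island at chr8:128744001-128751600 was 7.6 kb long with 264 and 21 reads. Deposited folds were 2.999, 3.20 and 2.57, each exceeded by over 50% of the islands of its list (54.2%, 52.3% and 56.2%). The MYC island was thus ordinary in fold but high in reads, with 3.27%, 3.0% and 5.09% of islands holding more. Scaled reads on the promoter were 30.0, 33.8 and 28.4, giving log2 ratios of 0.18 (-0.21 to 0.58) and -0.069 (-0.46 to 0.33). Uncentred, the promoter intervals over noDox included 0 for both H3 marks at both times. These intervals rest on the reads that longer islands give to the 4 kb. Intervals for centred values, such as 0.39 for H3K27ac at 7 days, were not computed. Between 7 and 2 days, H3K27ac on the MYC promoter had a ratio of 0.32 (0.017 to 0.61). Over the 14.4 kb it had 0.31 (0.15 to 0.48), and H3K9ac had a promoter ratio of -0.25 (-0.60 to 0.10). H3K27ac was thus higher at 7 than at 2 days beyond counting error on the promoter and on that fixed stretch. Over whole islands, merged as chr8:128743801-128760000, the ratio was 0.12 (-0.042 to 0.28), so the result depended on the stretch counted. Per kb of island on the promoter it was 0.31, against a median of 0.32 over merged regions of the mark with an island in both lists.

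H4K16ac approached the MYC start without reaching it. Its nearest islands lay 4.4 kb upstream and 10.2 kb downstream of the start without doxycycline, 33.2 and 38.4 kb at 2 days, and 4.8 and 29.8 kb at 7 days. A gap at the middle of an H3K27ac island was common. Among H3K27ac islands with at least as many reads as the MYC island (1098, 904 and 550), 42.3%, 50.2% and 35.3% had no H4K16ac island within 2 kb of their middle; among all H3K27ac islands 44.9%, 49.6% and 39.7% had none. Having no H4K16ac anywhere along the island was less common, since 95.7%, 88.3% and 87.5% of these strong islands touched an H4K16ac island. The MYC island touched a 1.4 kb H4K16ac island of 20 reads without doxycycline and none at 2 or 7 days. Among the strong islands, the shares without H3K9ac within 2 kb of the middle were 5.28%, 3.10% and 0.727%.

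**Figure D1:**
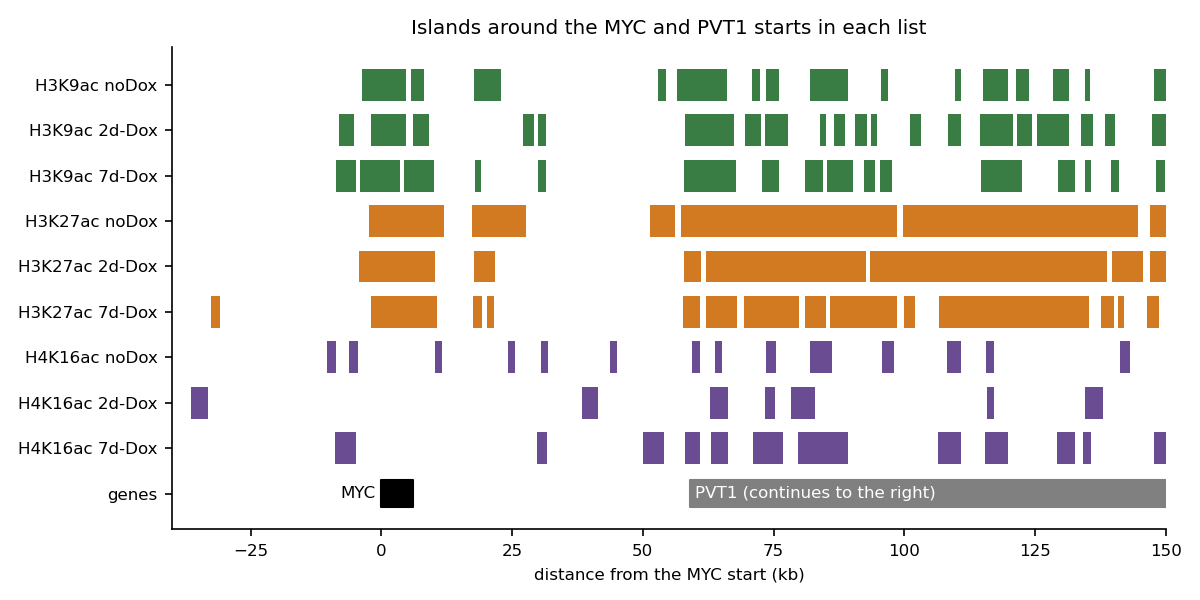
Islands around the MYC and PVT1 starts, with 1 row per mark and time; the x axis is distance from the MYC start in kb, each coloured bar is 1 island, and the bottom row draws MYC and the first part of PVT1. No H4K16ac bar lies on the MYC start, and the 41.4 kb H3K27ac bar at the PVT1 start without doxycycline is split at 2 and 7 days, with a 3.4 kb bar at the start itself.

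At the PVT1 start the H3K27ac calls changed in shape more than in reads. Without doxycycline a single island at chr8:128805201-128846600 ran 41.4 kb into the gene, with 2701 antibody and 71 HRP reads and a deposited fold of 9.56; 0.323% of that list's islands were longer. At 2 days the start was held by a 3.4 kb island at chr8:128805801-128809200 with 306 and 10 reads, and at 7 days by a 3.4 kb island at chr8:128805601-128809000 with 178 and 10 reads. Deposited folds were 9.72 and 11.9. Over the same 41.4 kb the lists held 1, 3 and 5 islands that covered 100%, 94.7% and 88.4% of it, and scaled reads of 679, 631 and 662. The log2 ratio over this stretch was -0.10 (-0.19 to -0.021) at 2 days and -0.036 (-0.14 to 0.070) at 7 days. The H3K27ac libraries grew smaller over time as the island split, and the part of library size in the split was not tested.

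The H3K27ac ratio on the 4 kb PVT1 promoter itself depended on how islands were counted. With reads spread evenly along islands it was 0.55 (0.30 to 0.81) at 2 days and 0.94 (0.65 to 1.22) at 7 days. With whole islands it was -2.80 and -2.51, because the noDox island is 41.4 kb long. The noDox value is the mean density of that island and does not resolve the 4 kb at the start, so no direction is given for it.

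H3K9ac on the PVT1 start was steadier in shape. Its islands were 9.4 kb (211 antibody and 19 HRP reads), 9.4 kb (287 and 21) and 10.0 kb (388 and 26), at chr8:128804601-128814000, chr8:128806001-128815400 and chr8:128805801-128815800. The promoter ratio was -0.42 (-0.86 to 0.015) at 2 days and -0.22 (-0.62 to 0.19) at 7 days. The noDox island covered all 4 kb of the promoter, and the later islands 3 and 3.2 kb. With whole islands, merged as chr8:128804601-128815800, the ratios were -0.0088 (-0.27 to 0.25) and 0.20 (-0.047 to 0.45). The 7-day sign thus depended on how islands were counted. Across the 41.4 kb stretch H3K9ac covered 51.2%, 56.5% and 62.8%, with ratios of 0.048 (-0.12 to 0.22) and 0.19 (0.029 to 0.35). In summed reads, H3K9ac on this stretch at 7 days was therefore above noDox beyond counting error, whereas over the whole window it was below. Its called length on the stretch went from 21.2 to 23.4 and 26 kb. Scaled reads per kb of island there went down, from 7.42 to 6.95 and 6.91.

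H4K16ac on the PVT1 promoter was slight. A 1.6 kb island at chr8:128807401-128809000 held 25 antibody and 5 HRP reads without doxycycline, none was called at 2 days, and a 3 kb island at chr8:128806001-128809000 held 105 and 10 reads at 7 days. The deposited folds of 1.97 and 1.33 were lower than those of 81.1% and 90.3% of their lists. The 7-day ratio was 0.43 (-0.21 to 1.12), or 0.0085 when centred.

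Among the segments, the PVT1 body held the largest share of each mark's reads. It makes up 25.3% of the window's length and held 56.0%, 62.6% and 61.3% of the window's H3K9ac reads, 64.4%, 62.3% and 63.5% of its H3K27ac reads, and 43.0%, 53.6% and 57.9% of its H4K16ac reads, in the order noDox, 2 days, 7 days. The longer upstream stretch held 39.3%, 35.3% and 36.5% of H4K16ac reads. Per kb of segment, the stretch after PVT1 was level with or above the body without doxycycline. Scaled reads per kb were 3.26 against 2.85 (H3K9ac), 10.8 against 10.9 (H3K27ac) and 1.28 against 1.26 (H4K16ac). It was also above for H3K27ac at 2 days (11.2 against 10.3) and below in the other later lists. Islands covered 43.0%, 45.2% and 39.0% of the body in the H3K9ac lists, 79.1%, 72.7% and 59.6% in the H3K27ac lists, and 22%, 23.6% and 47.8% in the H4K16ac lists. Covered length thus ran down over time for H3K27ac, whose libraries grew smaller, and up for H4K16ac, whose libraries grew larger.

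Scaled H3K27ac reads on the PVT1 body were 3308, 3129 and 3138, with log2 ratios of -0.080 (-0.12 to -0.042) at 2 days and -0.076 (-0.12 to -0.028) at 7 days. Centred, they are 0.041 and 0.067, so the sign depends on the scaling. For H3K9ac they were 865, 859 and 737, with ratios of -0.010 (-0.083 to 0.063) and -0.23 (-0.30 to -0.16), or 0.11 and -0.19 centred. For H4K16ac they were 384, 341 and 552, with ratios of -0.17 (-0.30 to -0.043) and 0.53 (0.42 to 0.63), or -0.32 and 0.10 centred. H3K27ac on the body therefore stood at 0.946 and 0.949 of its noDox level, while H3K9ac was lower at 7 days under both scalings. The H4K16ac excess at 7 days was -0.59 over sequence called in both lists, so it came with the longer called length.

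The H3K27ac islands with the most reads in each list lay inside PVT1. They were a 50.2 kb island at chr8:128900601-128950800 without doxycycline (4148 reads, 152.6 kb after the MYC start), a 53.2 kb island at chr8:128910601-128963800 at 2 days (3594 reads) and a 28.6 kb island at chr8:128854601-128883200 at 7 days (921 reads). Longer islands made up 0.146%, 0.0386% and 0.0414% of those lists. The merged H3K27ac region chr8:128805201-128893600 held 5288, 3993 and 1967 reads, a ratio of -0.066 (-0.13 to -0.0069) and -0.010 (-0.086 to 0.065). Its neighbour chr8:128900601-128974800 held 5281, 4134 and 1889 reads, a ratio of -0.015 (-0.074 to 0.044) and -0.067 (-0.14 to 0.0092). Together they hold most of the H3K27ac of PVT1, and neither ratio was further than 0.067 from 0 on the log2 scale.

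The marks shared their highest 100 kb step but differed in how far they fell off beyond it. In these steps, H3K27ac was highest 152 to 252 kb after the MYC start, with 1558, 1536 and 1474 scaled reads, close to the 1378, 1299 and 1347 of the preceding step. H3K9ac was also highest there, with 447, 382 and 375. In the following step, at the 3′ end of the gene, H3K27ac dropped to 433, 386 and 421 and H3K9ac to 152, 146 and 90.4. H4K16ac was spread more evenly, with its highest value in the same step: 93.6, 67.1 and 153 in the first of these 3 steps, 161, 167 and 203 in the second, and 106, 76.6 and 170 in the third. Its richest merged region, chr8:128969801-129009000, starts near the end of the second H3K27ac region and held 270, 404 and 1184 reads, a ratio of 0.30 (0.071 to 0.52) and 0.49 (0.30 to 0.69). Per kb of island that region was lower, by -0.29 and -0.52 on the log2 scale.

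**Figure D2:**
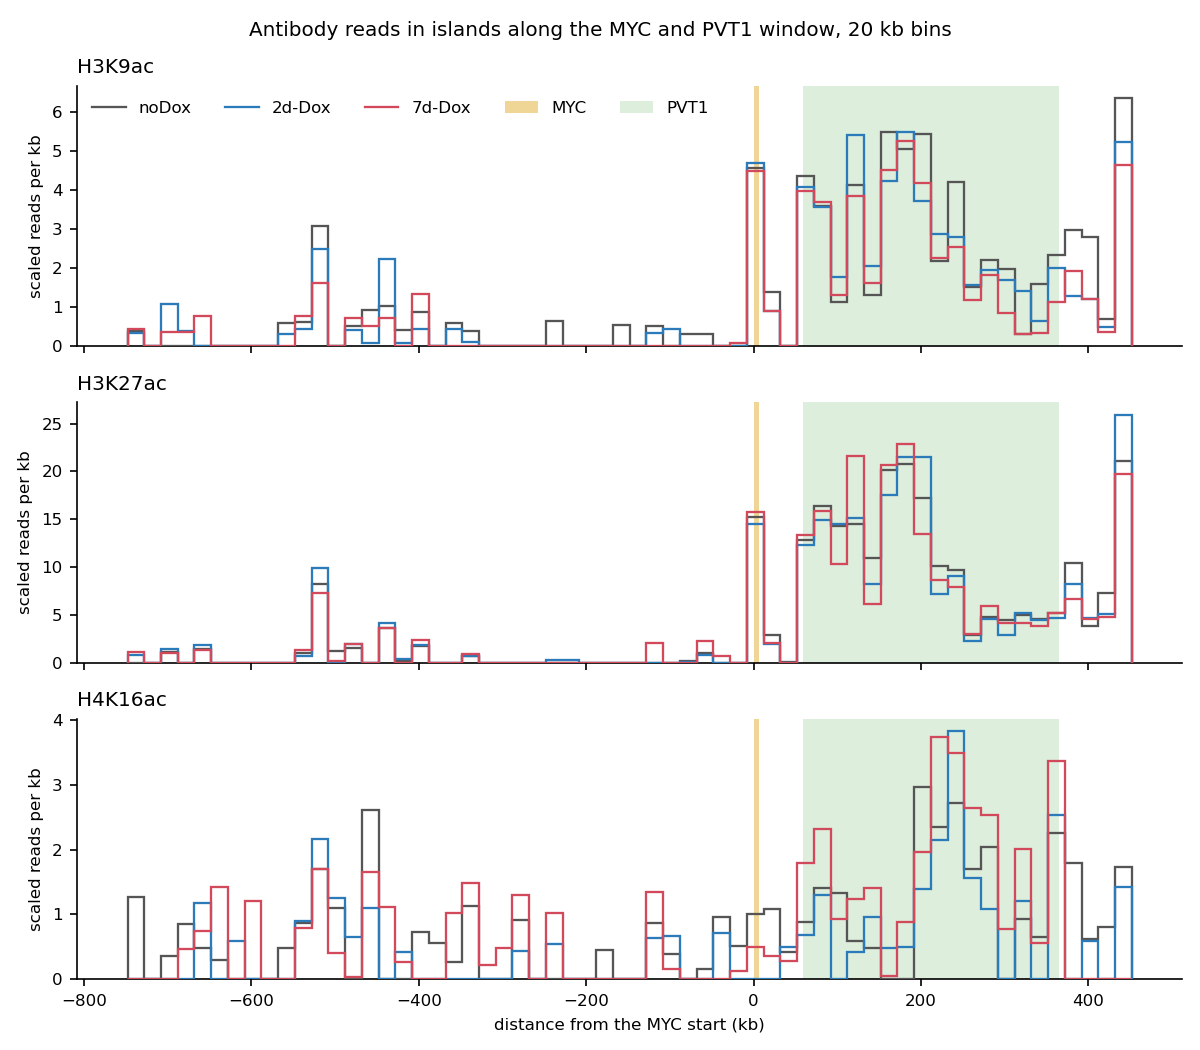
Scaled reads per kb in 20 kb steps along the locus, by distance from the MYC start in kb, with 1 panel per mark and 1 line per time. Inside PVT1 the highest H3K27ac and H3K9ac steps lie between 152 and 192 kb, a further peak stands at the right edge, and the highest H4K16ac steps lie between 192 and 252 kb.

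Upstream of MYC the 3 marks went different ways. This stretch is 746 kb long, 62.2% of the window, and islands covered 6.78%, 5.58% and 5.01% of it in the H3K9ac lists, 7.59%, 7.16% and 6.06% in the H3K27ac lists, and 8.18%, 6.41% and 14.6% in the H4K16ac lists. H3K9ac scaled reads were 248, 203 and 180, ratios of -0.29 (-0.44 to -0.15) and -0.47 (-0.61 to -0.33). H3K27ac scaled reads were 451, 547 and 523, ratios of 0.28 (0.18 to 0.38) and 0.21 (0.092 to 0.34). The H3K27ac island over MYC starts at chr8:128745601 without doxycycline, 128743801 at 2 days and 128746001 at 7 days. Its reads before the promoter enter this stretch without doxycycline and, over a longer part, at 2 days. They were not taken out, so the 2-day ratio includes this shift of the island's edge. H4K16ac scaled reads were 351, 225 and 348, ratios of -0.64 (-0.79 to -0.50) and -0.011 (-0.12 to 0.10). Centred, the pairs are -0.17 and -0.43 (H3K9ac), 0.40 and 0.36 (H3K27ac), and -0.80 and -0.43 (H4K16ac), all of the same sign as uncentred. Other choices turned some of these. With whole islands counted the H3K27ac value at 7 days is -0.52, since the noDox MYC island reaches past the edge of the stretch and the 7-day island does not. Over sequence called in both lists the H4K16ac value at 2 days is 0.050, so that difference too lay in which stretches were called.

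The H3K9ac difference upstream lay largely in which islands were called. Over sequence called in both lists the ratio was -0.034 at 2 days and -0.15 at 7 days. Of 19 merged H3K9ac regions with a noDox island and their middle upstream, 11 had no island at 2 days and 11 had none at 7 days (57.9% each; all regions of the mark 26.9% and 28.2%). These held 24 to 44 reads each. Gains stood beside the losses: 11 of 19 regions with a 2-day island (57.9%; all regions 38.5%) and 6 of 14 with a 7-day island (42.9%; all 35.4%) had none without doxycycline. By 100 kb step, the stretch from 348 to 48 kb before MYC held 7.87, 24.3 and 23 scaled H3K9ac reads without doxycycline. At 2 days it held 2.02, 0 (no island called) and 15.3, and at 7 days no island in any of the 3 steps. The step from 748 to 648 kb before MYC went the other way, with 7.87, 36.4 and 39.1. The step that holds MYC was nearly level at 119, 112 and 110. The 7-day H3K9ac library was the largest of its 3, and its smallest island anywhere held 17 reads. The part of library size in these losses and gains was not tested.

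H3K27ac upstream was concentrated in a far cluster. The step from 548 to 448 kb before MYC held 240, 252 and 217 scaled reads, and the next held 111, 128 and 119. Another step, 148 to 48 kb before MYC, held 24.1, 17.5 and 85.2. Among regions with at least 50 reads, the one highest at 7 days over noDox lies in that last step: chr8:128679401-128683200 held 96, 55 and 51 reads, a ratio of 0.50 (-0.016 to 1.01). At 2 days the highest ratio was at chr8:128342601-128345400 with 44, 55 and 24 reads, 0.66 (0.062 to 1.27). The region chr8:128635601-128637800 had no island until 7 days, when it held 31 reads.

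H4K16ac upstream also had its maximum in the step from 548 to 448 kb before MYC, with 126, 121 and 91.2 scaled reads. Its largest 2-day gain in the locus was at chr8:128088401-128093800, with 24, 73 and 117 reads, ratios of 1.32 (0.64 to 2.05) and 0.65 (0.0048 to 1.35). Its lowest 7-day ratio was next to MYC, at chr8:128737601-128743600, with 57 reads without doxycycline, no island at 2 days and 97 reads at 7 days, -0.87 (-1.36 to -0.37). A region without a noDox island, chr8:128147201-128155400, held 191 reads at 7 days.

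**Figure D3:**
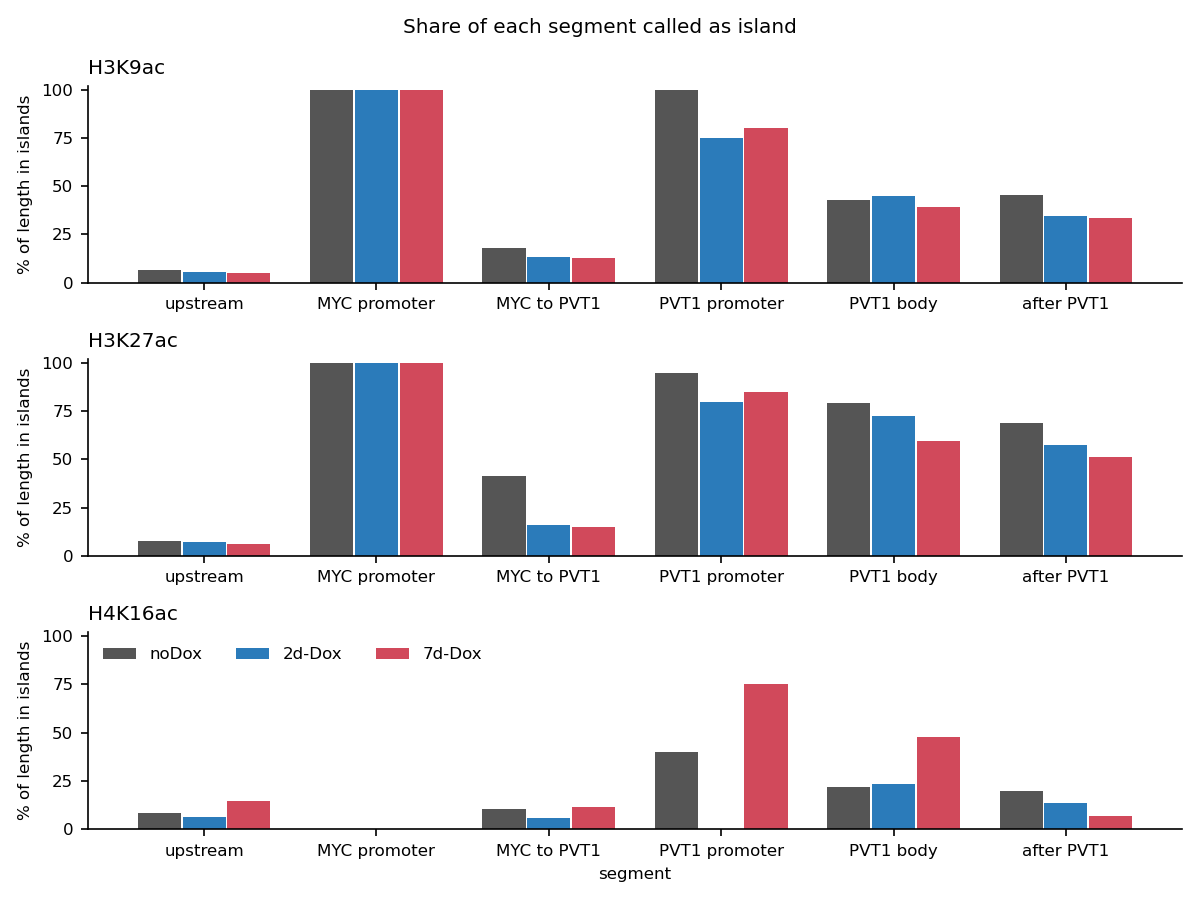
Share of each segment's length in islands, in percent, with 1 panel per mark and 1 bar per time; the rest of MYC is not drawn. The H3K27ac bars of the PVT1 body step down from 79.1% to 72.7% and 59.6%, and the H4K16ac bars step up from 22% to 47.8% at 7 days.

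Between MYC and PVT1 all 3 marks were lower at both times than without doxycycline. H3K9ac had 63.9, 43.9 and 36.4 scaled reads, ratios of -0.54 (-0.84 to -0.25) and -0.81 (-1.11 to -0.51). H3K27ac had 200.3, 123 and 158, ratios of -0.70 (-0.88 to -0.53) and -0.35 (-0.56 to -0.13). Its called length there went from 21.0 to 8.2 and 7.6 kb, and reads per kb of island from 9.54 to 15.0 and 20.7. H4K16ac had 37.9, 10.0 and 18.1 in 4, 1 and 2 islands, ratios of -1.92 (-2.55 to -1.32) and -1.06 (-1.45 to -0.67).

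The H3K27ac region with the lowest 2-day ratio of the locus lies there. At chr8:128765401-128775600, 17.4 kb after the MYC start, it held 230, 120 and 63 reads over 10.2, 4 and 3 kb, ratios of -0.60 (-0.93 to -0.28) and -0.45 (-0.88 to -0.044). Per kb of island it was higher, by 0.75 and 1.31. A noDox island at chr8:128799401-128804200, just before PVT1, held 60 reads and had no counterpart at 2 or 7 days.

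After PVT1, H3K9ac and H4K16ac were lower and H3K27ac was closer to level. H3K9ac had 284, 188 and 177 scaled reads, ratios of -0.59 (-0.74 to -0.45) and -0.68 (-0.82 to -0.54). H3K27ac had 942, 972 and 803, ratios of 0.045 (-0.024 to 0.11) and -0.23 (-0.33 to -0.14), or 0.17 and -0.088 centred. H4K16ac had 111, 60.6 and 22.4, ratios of -0.87 (-1.15 to -0.60) and -2.30 (-2.58 to -2.03), and its called length was 17.4, 11.6 and 5.8 kb.

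The H4K16ac value at 7 days rests on the tail of 1 island that crosses the end of PVT1. That island, chr8:129101401-129118800, held 530 antibody and 56 HRP reads; with whole islands counted the 7-day ratio is -0.82. The merged region around it, chr8:129101401-129119400, held 114, 156 and 530 reads, a ratio of 0.17 (-0.19 to 0.53) and 0.58 (0.28 to 0.88). Beyond it, each of 7 merged regions with a noDox island and its middle after PVT1 had no island at 7 days, in the largest H4K16ac library (100%; all regions of the mark 35.2%). These 7 held 23 to 58 reads without doxycycline. The largest, chr8:129182401-129190200, held 58 reads then and 88 at 2 days, and had no island at 7 days. Reads outside islands are not in the lists, and the smallest island of the 7-day list held 33. The part of library size in these losses was not tested.

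The right edge of the locus held the third of its 3 largest H3K27ac regions. At chr8:129174401-129201600, 426.4 kb after the MYC start, it held 2254, 1892 and 688 reads, ratios of 0.086 (-0.0027 to 0.17) and -0.30 (-0.42 to -0.17). The lowest 7-day H3K27ac ratio lies near it, at chr8:129160001-129166600 with 142, 126 and 15 reads, -1.83 (-2.70 to -1.06). Both were lower at 7 days in summed reads, and per kb of island they were -0.037 and 1.22. The called length of the smaller region went from 6.6 to 0.8 kb. Inside PVT1 the richest H3K27ac regions were closer to level, and others went both ways at 7 days. Examples are chr8:128976201-129009200 at -0.26 (-0.43 to -0.086) and chr8:129021801-129033200 at 0.41 (0.13 to 0.68).

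**Figure D4:**
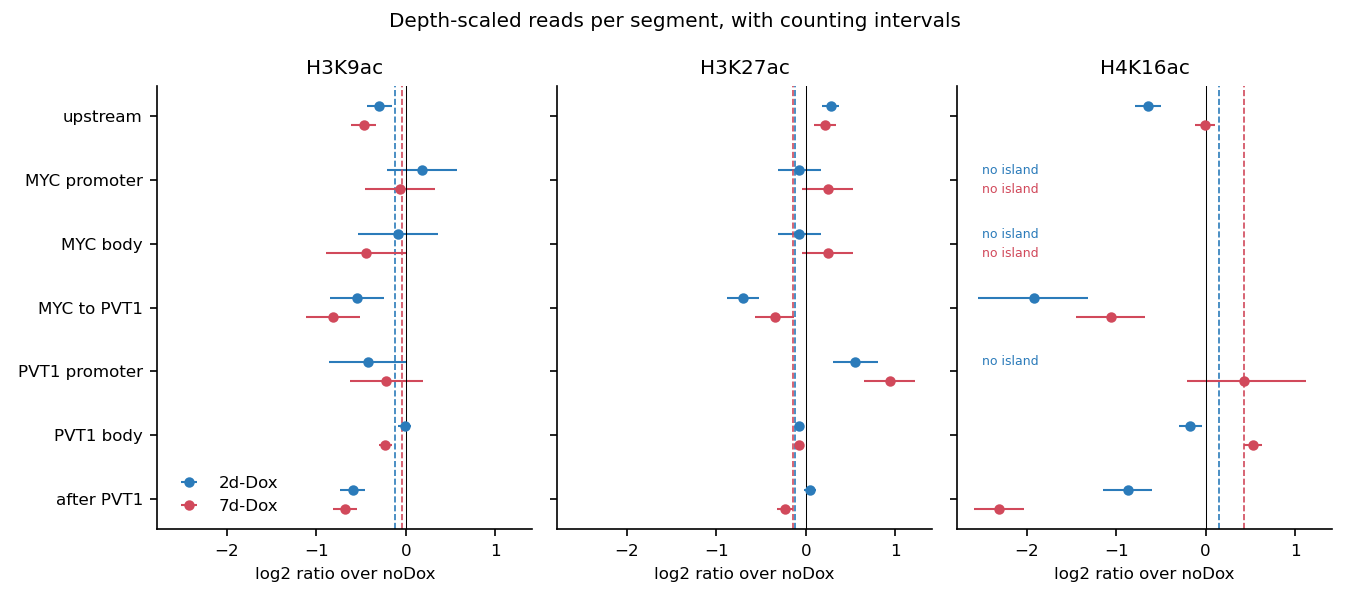
Log2 ratio of scaled reads over noDox for each segment, with 1 panel per mark and 1 point per time. Bars give the 95% interval of counting error, and dashed lines the median of merged regions with an island in both lists. Points for the MYC promoter lie near 0, and the lowest point is H4K16ac after PVT1 at 7 days (-2.30).

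Over the whole window, H3K9ac had 1546, 1374 and 1203 scaled reads on 241, 225.8 and 202 kb of islands. Its log2 ratio was -0.17 (-0.23 to -0.12) at 2 days and -0.36 (-0.42 to -0.31) at 7 days, and -0.19 (-0.24 to -0.14) between 7 and 2 days. Per kb of island the values over noDox were -0.077 and -0.11. Among windows of 1.2 Mb tiled along the chromosomes with at least 1000 reads in both libraries, 17.3% of 1506 had a lower ratio at 2 days and 1.92% of 1509 at 7 days. The tiled windows had medians of 0.0074 and 0.053. By called length at 7 days, 1.26% of windows had a lower ratio than the locus (-0.25, against a median of 0.25). In reads per kb of island the order turned over: at 7 days 91.9% of windows were lower than the locus, against a median of -0.20. The locus was thus near the low end of the genome in summed H3K9ac reads and called length at 7 days and near the high end in reads per kb of island; a place in this order is no test.

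H3K27ac over the window had 5133, 5024 and 4941 scaled reads on 389.6, 344 and 290.0 kb of islands. Its ratio was -0.031 (-0.061 to -0.00095) and -0.055 (-0.094 to -0.016), or 0.15 and 0.37 per kb of island. Of the tiled windows 72.1% of 1726 and 49.6% of 1385 had a lower ratio, which places the locus in the middle of the genome at 7 days. In level the locus was far from the middle: 98.0%, 98.7% and 97.1% of windows held fewer H3K27ac reads. For H3K9ac these shares were 81.1%, 76.6% and 69.7%, and for H4K16ac 63.9%, 46.3% and 48.7%.

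H4K16ac over the window had 894, 636 and 955 scaled reads on 152, 134.2 and 269 kb of islands. The ratio was -0.49 (-0.58 to -0.40) at 2 days and 0.096 (0.028 to 0.16) at 7 days, or -0.64 and -0.33 centred, so the 7-day sign depends on the scaling. Per kb of island it was -0.31 and -0.73. Of the tiled windows 8.28% of 1376 and 6.60% of 1410 had a lower ratio, against medians of 0.088 and 0.50. In reads per kb of island 3.49% and 1.99% of windows were lower. From 2 to 7 days the summed ratio was 0.59, above 77.9% of windows, and per kb of island it was -0.42, above 25.6%. H4K16ac in the locus was therefore low over noDox relative to most windows by both measures, while its place between 2 and 7 days depended on the measure.

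**Figure D5:**
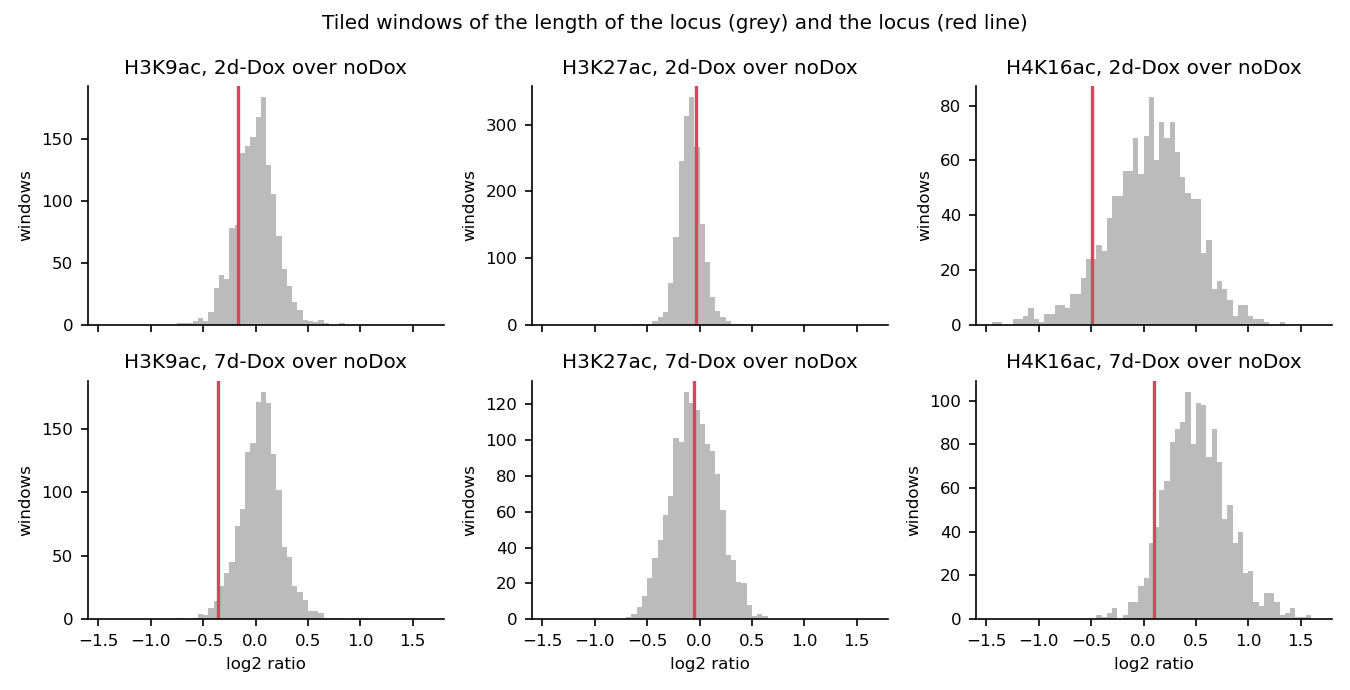
Distribution of the log2 ratio over noDox among 1.2 Mb windows tiled along the genome, with 1 panel per mark and time, the x axis in log2 units and the line at the locus. In summed reads the locus lies in the low tail for H3K9ac at 7 days (1.92% of windows lower, against 91.9% per kb of island, which is not drawn) and near the middle for H3K27ac (49.6% lower).

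Single merged regions past 2-fold were few, and their share is read against that of all merged regions of the mark with islands in both lists. For H3K9ac at 2 days, 1 of 38 regions with islands in both lists was at least 2-fold higher (2.63%; all regions 4.69%) and 3 were lower (7.89%; all 9.48%). At 7 days 1 of 35 was higher (2.86%; all 5.8%) and 4 were lower (11.4%; all 6.2%). For H3K27ac at 2 days 0 of 25 were higher (all 0.457%) and 0 were lower (all 3.38%); at 7 days 0 of 26 were higher (all 2.2%) and 2 were lower (7.69%; all 8.61%). For H4K16ac at 2 days 1 of 19 was higher (5.26%; all 15.2%) and 3 were lower (15.8%; all 8.39%); at 7 days 3 of 27 were higher (11.1%; all 22.9%) and 0 were lower (all 2.4%). With counts this small, the shares do not set the locus apart for any of the 3 marks.

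The H3K9ac region with the highest ratio, at both times, shows how a summed count follows called length. At chr8:129015801-129023400 in PVT1 it held 17 reads on 0.4 kb, 90 on 5.8 kb and 115 on 6.8 kb, ratios of 1.95 (1.19 to 2.79) and 2.08 (1.34 to 2.91). Per kb of island it was -1.91 and -2.01. The lowest at 7 days, chr8:128990601-128995600, held 79, 53 and 42 reads on 5, 3.2 and 2.2 kb, ratios of -1.03 (-1.56 to -0.51) and -1.59 (-2.17 to -1.03). The lowest at 2 days, chr8:129119801-129123400 after PVT1, held 93, 60 and 122 reads, ratios of -1.08 (-1.58 to -0.60) and -0.29 (-0.69 to 0.12). The 3 richest H3K9ac regions all stayed within 2-fold. The first, chr8:128928201-128946800 in PVT1, held 370, 428 and 577 reads, -0.24 (-0.45 to -0.038) and -0.039 (-0.23 to 0.15). The second, over MYC at chr8:128744001-128758000, held 278, 347 and 388 reads, -0.13 (-0.36 to 0.10) and -0.20 (-0.42 to 0.028). The third, chr8:128910601-128924600, held 280, 288 and 407 reads, -0.41 (-0.65 to -0.17) and -0.14 (-0.36 to 0.084).

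For H4K16ac the region with the highest 7-day ratio lies near the 3′ end of PVT1. At chr8:129056001-129071600 it held 47, 42 and 434 reads on 3.2, 2.4 and 14.2 kb, 1.57 (1.13 to 2.04) at 7 days and -0.58 per kb of island. The lowest 2-day ratio among regions with at least 50 reads was at chr8:129026801-129040200, with 65, 38 and 268 reads, -1.06 (-1.68 to -0.46). The region chr8:128951201-128963200, the third by reads in this mark, held 103, 84 and 262 reads, -0.58 (-1.01 to -0.15) and -0.29 (-0.63 to 0.052).

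Islands present at 1 time and missing at another were counted the same way. Of 56 H3K9ac regions with a noDox island, 18 had none at 2 days (32.1%; all regions 26.9%) and 21 had none at 7 days (37.5%; all 28.2%). Of those with an island at 2 days, 19 of 57 had none without doxycycline (33.3%; all 38.5%), and of those at 7 days 11 of 46 (23.9%; all 35.4%). The largest H3K9ac region lost by 7 days, chr8:129086001-129092000 in PVT1, held 97 reads without doxycycline, and the largest gained, chr8:128086201-128089800, held 77 at 7 days.

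For H3K27ac, losses of noDox regions were near the share of all regions at 2 days and below it on few regions at 7 days. Of 28, 3 had no island at 2 days (10.7%; all 12.2%) and 2 had none at 7 days (7.14%; all 19.9%). New H3K27ac regions numbered 5 of 30 at 2 days (16.7%; all 15.2%) and 14 of 40 at 7 days (35%; all 42.6%), and the 14 held 13 to 31 reads each. H4K16ac regions turned over most: of 55, 36 had no island at 2 days (65.5%; all 45.7%) and 28 had none at 7 days (50.9%; all 35.2%). New H4K16ac regions numbered 12 of 31 at 2 days (38.7%; all 37.4%) and 17 of 44 at 7 days (38.6%; all 37.5%). The H4K16ac regions missing at 2 days held 15 to 57 reads without doxycycline, and the smallest island of the 2-day list held 14. Whether library size played a part in these calls was not tested.

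As a share of their own length, H3K9ac and H4K16ac islands overlapped H3K27ac more in the locus than over the genome. H3K27ac islands covered 32.5%, 28.7% and 24.2% of the window, and 306, 257 and 222 Mb of the genome. The locus held 389.6, 344 and 290 kb of H3K27ac islands, against medians of 106.4, 91 and 70.2 kb over tiled windows. The shares below do not allow for this difference in coverage, and overlap relative to coverage was not tested. Of H3K9ac island length in the window, 85.3%, 81.7% and 76.6% was shared with H3K27ac, against 54.4%, 45.5% and 35.2% over the genome. Of H4K16ac length, 57.9%, 54.7% and 39.0% was shared with H3K27ac, against 32.4%, 24.9% and 19.1%. The overlap of H3K9ac with H4K16ac was a smaller share of H3K9ac length in the locus than over the genome: 26%, 24.2% and 44.7% of H3K9ac length, against 36.2%, 44.5% and 68.4%. As a share of H4K16ac length it was 41.2%, 40.7% and 33.5%, against 41.1%, 43.7% and 43.6%, so by that measure it was level without doxycycline. Sequence under all 3 marks made up 12.0%, 11% and 13.4% of the length under any.

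The HRP control gave the background in the same islands. Its reads per kb of island in the window were 2.12, 2.02 and 2.13 in the H3K9ac lists, 2.27, 2.22 and 2.24 in the H3K27ac lists, and 1.98, 2.08 and 1.83 in the H4K16ac lists. Relative to islands on the other chromosomes these were 0.957 to 1.12 times as high. Antibody reads over scaled HRP reads in the window stood at 3.03, 3.01 and 2.79 (H3K9ac), 5.81, 6.59 and 7.60 (H3K27ac), and 2.98, 2.28 and 1.94 (H4K16ac). On the other chromosomes they were 3.06, 3.05 and 2.74, then 5.0, 5.52 and 6.84, then 3.26, 2.77 and 2.12. The locus thus stood further above its control than other chromosomes in H3K27ac and less far in H4K16ac, at all 3 times.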

How the data were processed

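Per the submitters' processing notes, reads were handled with Bowtie2 2.3.5.1, SICER, cutadapt, Picard, FastQC and deepTools on hg19, with settings not given in the sources used here. For each of the 9 lists the authors set 1 antibody library against the HRP library, per the file headers. The deposited columns hold whole-number counts of antibody and HRP reads per island, the authors' log2 fold, p-value and FDR, and a score, which was not used. The deposited log2 fold equals the log2 ratio of both counts minus a constant of the list, with an HRP count of 0 entered as 0.25. That constant gave library size relative to HRP.

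Members, lists and segments were chosen with earlier results of these data known. The window and gene positions were given in kb, and both genes were taken to lie on the forward strand. An island crossing a segment edge gave the segment its count times the share of its length inside. Ratios are log2 of scaled reads with 95% exact Clopper-Pearson intervals; these take reads as independent, which PCR copies are not, and cover counting error only. Sums move with called length, and reads per kb of island are therefore given too. Merged regions are islands of a mark's 3 lists that touch; tiled windows of 1.2 Mb needed 1000 reads in both libraries. Regions named are those over the promoters, the 3 richest per mark, the highest and lowest ratio per mark and time among regions with islands in both lists and at least 50 reads in either, and the largest gained or lost by 7 days; 100 kb steps and other islands were picked to describe the profile. Coordinates are 1-based on hg19. No sequence is printed, and genes other than MYC and PVT1 were not placed, since no hg19 annotation was used here. The labels name no spike-in, so overall acetylation levels cannot be compared. The code was tested on simulated data, in Python 3.11.15 with numpy 2.4.6, pandas 2.3.3 and scipy 1.17.1. Alternatives tried were another library size, centring, 2 ways of counting edge islands, FDR of at most 0.001, sequence called in both lists, promoters of 1 and 5 kb each way, subtraction of HRP reads, joining of gaps up to 2 kb and a minimum of 200 reads per window.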

Additional observations from a re-analysis of the deposited data

How the results depend on the processing

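Ratios for the MYC promoter, the PVT1 body and the upstream stretch at 2 and 7 days over noDox were recomputed under 9 settings, and values below are log2 ratios. With promoters of 1 kb each way none of the 16 moved by more than its counting interval. With islands counted by midpoint none of 14 did, 13 kept their sign, and H3K9ac at MYC at 2 days became -0.13; H3K27ac at MYC had no value, since no island had its midpoint in the promoter at any time. With promoters of 5 kb each way, 1 of 16 moved by more than its counting interval and 13 kept their sign. H3K27ac at MYC at 2 days became 0.24 under that setting. With size from reads in islands, H3K27ac at 2 days became 0.38 upstream and 0.023 on the PVT1 body, and H4K16ac at 7 days -0.52 upstream and 0.015 on the body. Less the median of regions with an island in both lists, PVT1 body values became 0.11 for H3K9ac at 2 days, 0.041 and 0.067 for H3K27ac and -0.32 and 0.10 for H4K16ac at 2 and 7 days. Upstream, H3K27ac became 0.40 and 0.36 and H4K16ac -0.80 and -0.43. With HRP reads subtracted, H3K27ac at 7 days became 0.36 upstream and -0.021 on the body, and H4K16ac -0.52 and 0.041 on the body at 2 and 7 days and -0.37 upstream at 7 days. Over sequence called in both lists, H3K9ac became -0.034 and -0.15 upstream and -0.14 on the body at 7 days; H3K27ac 0.021 and 0.26 on the body and 0.62 upstream at 7 days; H4K16ac 0.050 and -0.72 upstream and -0.59 on the body at 7 days. At FDR up to 0.001, H3K9ac upstream at 7 days became -0.63, and H4K16ac -0.35 and 0.28 upstream and -0.32 on the body at 2 days. With whole islands, H3K9ac upstream at 2 days became -0.56, and H3K27ac upstream 0.085 and -0.52. After PVT1, H4K16ac at 7 over 2 days, -1.43, reversed to 0.15 with whole islands and 0.13 at the stricter FDR, where its called length reversed to 0.61; the 7-day island that crosses the end of PVT1 enters differently under each. The cause of the other changes was not tested. No paired analysis was possible because each mark and time has 1 library. Library size ran down over time for H3K27ac and up for H4K16ac, so called length and depth cannot be told apart.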
